A study of Mus musculus with 12 samples.

Results

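The desaturases and elongases of fatty acids described here were Scd1, Scd2, Fads1, Fads2, Fads3, Elovl2, Elovl4, Elovl5, Elovl6 and Elovl7. These 10 genes were picked by symbol from the 55385 genes of the expression table, and all 10 were among the 21393 genes with a mean of at least 0.1 FPKM that were tested. RNA was sequenced from the brains of 12 wild-type C57/BL6J mice, which the methods describe as males of 8 weeks at purchase, with 3 mice in each of 4 groups. The C_W mice were unstressed and given water, and the C_O mice were unstressed and given krill oil. The MS_W mice went through chronic unpredictable mild stress (CUMS) and were given water, and the MS_O mice went through CUMS and were given krill oil. Krill oil was given into the stomach at 200 mg/kg per day for 5 weeks, CUMS lasted 4 weeks, and the control for the oil was water rather than another oil. The discussion of the paper places the oil before and during CUMS, but how the periods overlapped is not clear from the methods. CUMS is a mixture of mild stressors such as damp or tilted cages, restraint, isolation, noise and strobe light, used as a model of depression. Each mouse gave 1 library of poly(A) RNA, named by its group and mouse number, and FPKM is the number of fragments per kilobase of transcript, scaled to the mapped fragments of the library.

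Desaturases put double bonds into fatty acids and elongases lengthen them by adding carbon atoms from malonyl-CoA, and both kinds of enzyme sit in the membrane of the endoplasmic reticulum. Scd1 and Scd2 encode the delta-9 desaturases that make oleic and palmitoleic acid from saturated fatty acids. Fads2 encodes the delta-6 desaturase and Fads1 the delta-5 desaturase, which act in turn with the elongases of Elovl5 and Elovl2 to make arachidonic acid and docosahexaenoic acid (DHA) from the essential fatty acids, while Fads3 encodes a further enzyme of that family. Krill oil carries the n-3 polyunsaturated fatty acids EPA and DHA, which are late products of that route. Elovl6 lengthens palmitic acid, Elovl4 makes very long fatty acids, and Elovl7 lengthens saturated and monounsaturated acyl-CoAs.

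The 3 Fads genes lay next to each other in the mm10 build. Fads3 was placed at chr19:10041569-10060110 on the plus strand, Fads2 at chr19:10062765-10101746 on the minus strand and Fads1 at chr19:10182888-10196877 on the plus strand. Fads3 and Fads2 were separated by 2654 bases and Fads2 and Fads1 by 81141 bases. The Scd genes formed a neighbouring pair on the same chromosome, with Scd2 at chr19:44293674-44306864 on the plus strand, Scd1 at chr19:44394455-44407709 on the minus strand, and 87590 bases between them. Elovl2 was placed at chr13:41182381-41220405 (minus), Elovl4 at chr9:83778692-83806277 (minus), Elovl5 at chr9:77917364-77984519 (plus), Elovl6 at chr3:129532355-129634971 (plus) and Elovl7 at chr13:108214404-108285683 (plus).

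The promoters of Fads2, Elovl5, Elovl2 and Fads3 are shown because the first 3 of these genes were higher, and Fads3 lower, in every MS_W library than in every C_W library. Each sequence is from RefSeq (GRCm38.p6, the same assembly as mm10) and runs 5′ to 3′ on the strand of its gene. It covers 250 bases before the start annotated in RefSeq to 50 bases after it. Capitals mark the CCAAT box, the GC box GGGCGG or the E-box CACGTG on either strand. The windows are chr19:10101454-10101753 for Fads2, chr9:77917115-77917414 for Elovl5, chr13:41220354-41220653 for the upstream start of Elovl2 and chr19:10041298-10041597 for Fads3. The Fads2 gene of the expression table reaches 10101746, so nearly all of the Fads2 window lies inside the gene that was measured.
Fads2: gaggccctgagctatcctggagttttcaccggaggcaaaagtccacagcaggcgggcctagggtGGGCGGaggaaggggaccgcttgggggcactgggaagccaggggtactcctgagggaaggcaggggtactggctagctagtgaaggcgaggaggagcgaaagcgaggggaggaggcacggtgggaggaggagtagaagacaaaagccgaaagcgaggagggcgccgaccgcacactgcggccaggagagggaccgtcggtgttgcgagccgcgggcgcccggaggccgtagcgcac
Elovl5: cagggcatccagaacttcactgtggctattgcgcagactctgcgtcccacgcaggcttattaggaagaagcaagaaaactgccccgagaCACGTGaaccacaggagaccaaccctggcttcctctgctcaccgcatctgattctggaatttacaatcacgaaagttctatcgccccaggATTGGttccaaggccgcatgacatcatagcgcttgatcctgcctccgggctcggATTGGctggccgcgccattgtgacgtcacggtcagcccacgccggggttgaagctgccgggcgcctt
Elovl2: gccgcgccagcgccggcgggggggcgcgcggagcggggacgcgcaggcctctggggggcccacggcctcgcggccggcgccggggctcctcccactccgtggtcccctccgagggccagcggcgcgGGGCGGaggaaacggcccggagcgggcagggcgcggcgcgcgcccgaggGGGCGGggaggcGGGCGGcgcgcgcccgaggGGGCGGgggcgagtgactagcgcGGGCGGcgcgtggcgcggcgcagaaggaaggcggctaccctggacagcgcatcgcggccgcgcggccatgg
Fads3: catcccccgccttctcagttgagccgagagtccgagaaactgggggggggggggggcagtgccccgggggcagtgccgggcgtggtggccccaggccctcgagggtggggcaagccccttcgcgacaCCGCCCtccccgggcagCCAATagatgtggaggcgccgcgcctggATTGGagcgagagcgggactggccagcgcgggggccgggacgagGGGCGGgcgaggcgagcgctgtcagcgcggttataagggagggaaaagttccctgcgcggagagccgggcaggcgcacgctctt

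The Fads2 window held a single GC box, at -186 from the RefSeq start and inside the measured gene, and no CCAAT box. The Elovl5 window held CCAAT on the opposite strand at -71 and -17 and the E-box CACGTG at -161, while the Elovl2 window held 5 GC boxes between -124 and -21 and no CCAAT box. The Fads3 window held CCAAT at -106 and, on the opposite strand, at -78, with GC boxes at -34 and, on the opposite strand, at -123. Over the 8 windows of the 7 matched genes (Fads2, Fads3, Elovl2, Elovl4, Elovl5, Elovl6 and Elovl7), 5 held a GC box, 3 a CCAAT box and 2 the E-box. Among all 32851 promoter windows, 35.7% held a GC box, 37.4% a CCAAT box and 7.15% the E-box. The sterol regulatory element TCACNCCAC, a site of the SREBP transcription factors, and the TATA box TATAAA were each found in 0 of the 8 windows, against 1.24% and 13.6% of all windows. Both strands were searched, and the motifs do not contain one another.

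Among the 12 libraries, C_O72 and MS_W95 were unlike all others. The genes of a hindbrain list, among them Hoxb3, Hoxb4 and Hoxa5, were all detected in these libraries, but 5 to 7 of the 7 were listed at 0.0001 FPKM, the value of a gene without an estimate, in each of the other 10. The summed FPKM of 6 cerebellar genes was 254 in C_O72 and 905 in MS_W95, against 27.2 to 38.5 elsewhere, although the methods describe whole brains. Estimated counts summed to between 50912906 and 75678721 per library, and every C_W library was deeper than every MS_W library. How reads shared by the similar Scd1 and Scd2 transcripts were assigned is not given in the sources used here.

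Over the 12 libraries, Scd2 had the highest mean (176 ± 143 FPKM, SD, n = 12), at the 99.3 percentile of all tested genes. Fads2 (57.0 ± 8.84 FPKM), Fads1 (50.2 ± 3.76 FPKM) and Scd1 (42.1 ± 13.7 FPKM) followed, then Elovl5 (24.8 ± 8.83 FPKM) and Elovl4 (16.4 ± 1.37 FPKM). Fads3 (8.15 ± 1.74 FPKM), Elovl6 (7.41 ± 1.26 FPKM), Elovl2 (4.75 ± 1.83 FPKM) and Elovl7 (3.47 ± 1.71 FPKM) were lowest. The ranges of neighbours in this order overlapped for every pair except Elovl4, which stayed between 14.2 and 18.9 FPKM, and Fads3, which stayed between 4.30 and 10.4 FPKM. Fads1 was the steadiest gene, with a coefficient of variation of 7.49%, and Scd2 the most variable, at 80.9%. Scd1, Elovl2, Elovl4, Elovl5 and Elovl7 were higher in both C_O72 and MS_W95 than in any of the other 10 libraries. For Elovl7 this was 7.66 and 6.24 FPKM against 1.73 to 3.26 FPKM, and for Scd1 78.4 and 60.8 FPKM against 29.3 to 39.9 FPKM.

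**Figure D1:**
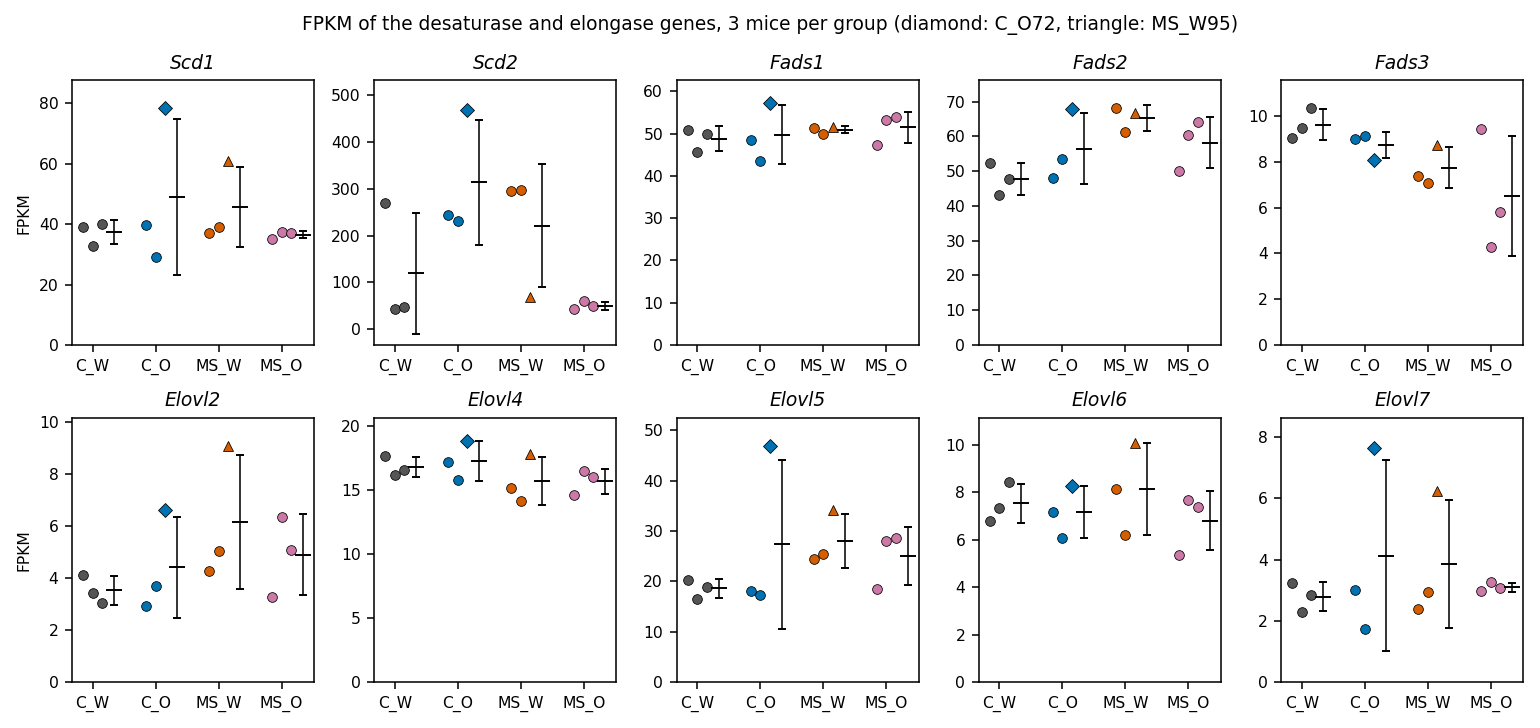
FPKM (linear vertical axes) of the 10 genes in each of the 12 libraries, by group on the horizontal axis. Circles are single mice, the diamond is C_O72, the triangle is MS_W95, and bars are the mean ± SD of 3 mice. Scd2 lies either at 42.6 to 69.1 FPKM or at 230 to 468 FPKM, while Fads1 stays between 43.4 and 57.2 FPKM in every library.

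To ask how CUMS moved these genes in mice given water, C_W was compared with MS_W. In this and the following comparisons, a log2 difference is the difference between group means of log2(FPKM + 1) with its standard error (SE) from limma, and p was adjusted over all 21393 tested genes. None of the 10 genes passed an adjusted p of 0.05, a threshold that 0.00467% of tested genes passed. Of the 10, 1 gene, Fads2, had an unadjusted p under 0.05, against 10.5% of tested genes. The estimate was above 0 for 8 of 10 genes, with a median log2 difference of 0.27, against a median of 0.06 over all tested genes. Without MS_W95 the median of the 10 genes was 0.04, and it was -0.27 in a linear model with library size as a covariate. Library size here was the sum of log2(FPKM + 1) over detected genes below the upper quartile of the library. It was thus taken from the FPKM values and is not the sequencing depth. The FPKM level itself differed between the groups, with a median over tested genes of 2.16 to 2.18 in C_W and 2.31 to 2.43 in MS_W. A covariate of this kind may therefore follow CUMS, and whether it did was not tested. There were 4 genes whose groups did not overlap, against 24.6% of tested genes. Of these, 3 were higher in MS_W (Fads2, Elovl2 and Elovl5, against 16.3% of tested genes) and 1 was lower (Fads3, against 8.22%). No gene of the 10 was a DEG, which is used here for an unadjusted p under 0.05 with more than a 2-fold ratio of group mean FPKM, as were 4.59% of tested genes.

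Fads2, the delta-6 desaturase that starts the route to the long polyunsaturated fatty acids, measured 52.4, 43.1 and 47.8 FPKM in C_W1, C_W64 and C_W70, and 68.3, 61.2 and 66.8 FPKM in MS_W31, MS_W75 and MS_W95. The lowest MS_W library was thus above the highest C_W library. The log2 difference was 0.45 (SE 0.14, unadjusted p = 0.0104, adjusted p = 0.352), higher in 3 of 3 MS_W mice. Without C_O72 and MS_W95 it was 0.43 (SE 0.13, unadjusted p = 0.00863, adjusted p = 0.165). With libraries weighted by limma's array weights, which gave C_O72 a weight of 0.173 and MS_W95 a weight of 0.242, the difference of 0.46 passed the adjusted threshold (adjusted p = 0.0363), as did 3.85% of tested genes in that fit. In the linear model with library size the Fads2 difference was 0.03 (unadjusted p = 0.816), and there the direction turned for Elovl5 (-0.51), Elovl2 (-0.29) and Fads3 (0.30).

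Elovl5, the elongase that acts on the products of the delta-6 desaturase, measured 20.3, 16.6 and 19.0 FPKM in the C_W libraries and 24.5, 25.4 and 34.2 FPKM in the MS_W libraries. All MS_W libraries were above all C_W libraries, with the highest value in MS_W95. The log2 difference was 0.55 (SE 0.33, unadjusted p = 0.123, adjusted p = 0.562), and 0.41 (SE 0.17, unadjusted p = 0.0470) without C_O72 and MS_W95, a fit in which 15.4% of tested genes had an unadjusted p under 0.05. Elovl2, which lengthens the precursors of DHA, measured 4.14, 3.42 and 3.04 FPKM in C_W and 4.29, 5.06 and 9.09 FPKM in MS_W. The groups were separated by a narrow gap, and the log2 difference of 0.61 (SE 0.30, adjusted p = 0.507) was 0.33 without C_O72 and MS_W95. Fads3 measured 9.02, 9.50 and 10.4 FPKM in C_W and 7.37, 7.09 and 8.76 FPKM in MS_W. Its log2 difference was -0.29 (SE 0.20, adjusted p = 0.613), opposite in sign to that of its neighbour Fads2.

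The other genes overlapped between C_W and MS_W. Fads1, the delta-5 desaturase that follows Fads2 in the route, differed by 0.06 on the log2 scale (95% interval -0.18 to 0.31), and Elovl4 by -0.10 (95% interval -0.33 to 0.14). The ratio of Fads2 to Fads1, both per length, was 0.948 to 1.03 in C_W and 1.23 to 1.33 in MS_W. Scd1 differed by 0.25 (SE 0.30), Elovl6 by 0.08 (SE 0.18) and Elovl7 by 0.28 (SE 0.38), and without MS_W95 these were 0.03, -0.07 and -0.05, while Elovl4 was at -0.18. Scd2 differed by 1.15 (SE 0.72), with 1 of 3 C_W libraries and 2 of 3 MS_W libraries above 200 FPKM.

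**Figure D2:**
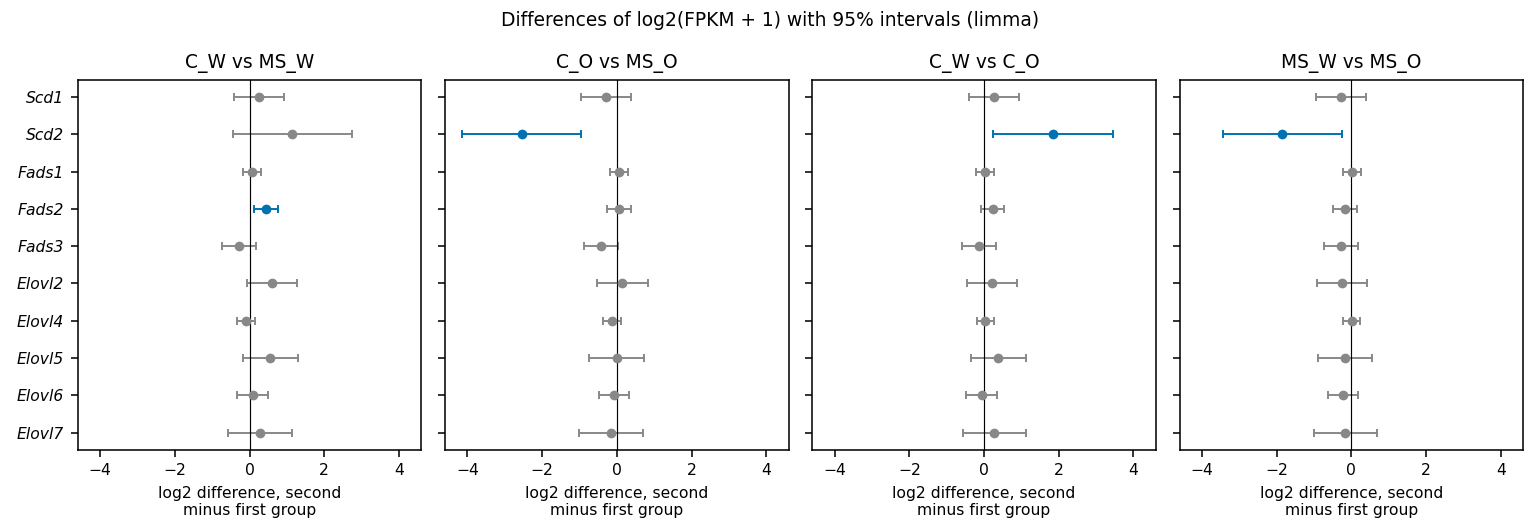
Log2 differences (second group minus first) of the 10 genes in the 4 pairwise comparisons, with 95% intervals from limma. Blue marks an unadjusted p under 0.05, which Fads2 had in C_W vs MS_W (0.45) and Scd2 had in the other 3 comparisons (-2.55, 1.85 and -1.85), and none of these passed after adjustment.

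Markers of brain regions moved with this comparison. The cortex score, the mean log2(FPKM + 1) of 6 cortical genes such as Slc17a7, Tbr1 and Neurod6, was 4.35, 4.78 and 4.42 in C_W and 3.54, 3.48 and 2.16 in MS_W. The groups did not overlap, the difference was -1.46, and the exact two-sided permutation p was 0.1, the smallest that 3 mice against 3 allow (adjusted p = 0.65 over 52 comparisons of scores). All 6 cortex genes were lower on average in MS_W, their summed FPKM was 339 to 390 in C_W and 74.4 to 146 in MS_W, and none was at 0.0001 FPKM in these libraries. In the fit with the cortex score as a covariate, an alternative added after seeing the data, the C_W vs MS_W difference was 0.24 for Fads2 (SE 0.11, unadjusted p = 0.0650), -0.11 for Elovl5 (SE 0.12), 0.05 for Elovl2 (SE 0.18) and -0.17 for Fads3 (SE 0.24). Because the score did not overlap between C_W and MS_W, the score and CUMS cannot be told apart in this fit. Within groups the score spread most in C_O, from 1.81 in C_O72 to 4.85 in C_O15. Other scores without overlap were those of the hypothalamus (1.44 higher in MS_W, and 2.10 without C_O72 and MS_W95), the meninges (0.53 higher), the endothelium (0.20 higher) and neurons (-0.25), each with the same exact p of 0.1, and their part in the results was not tested. The neuron genes did not move together, since 4 of the 8 were higher and 4 lower in MS_W. All 6 meninges genes and all 6 endothelium genes were higher. The summed FPKM of the hypothalamus list was 98.6 in MS_W31 and 96.6 in MS_W75, and 1.14 to 16.2 in the other libraries. The striatum score, whose groups overlapped, was 2.80 higher in MS_W without C_O72 and MS_W95. Whether the libraries held the same parts of the brain was not tested. In bulk RNA, fewer cells of a type, less RNA per cell and a different piece of tissue cannot be told apart.

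The single MS_O libraries were set beside the same cortex score. MS_O13 had a cortex score of 4.39, within the span of 4.35 to 4.85 of the 5 control libraries other than C_O72, and MS_O46 and MS_O78 had scores of 3.33 and 3.70. The summed FPKM of the same genes did not set MS_O13 apart in this way. It was 251 in MS_O13, 234 in MS_O46 and 278 in MS_O78, all below the control span of 287 to 392. Fads2 was 49.9 FPKM in MS_O13, within the control span of 43.1 to 53.6 FPKM, and 60.5 and 64.2 FPKM in MS_O46 and MS_O78. Elovl5 was 18.5 FPKM in MS_O13 (control span 16.6 to 20.3 FPKM) and 27.9 and 28.7 FPKM in the other 2 libraries. MS_O13 was thus inside the control span, and the other MS_O libraries above it, for both genes. MS_O13 also stood apart in other scores. The meninges score was 0.89 in MS_O13 and 1.40 and 1.42 in MS_O46 and MS_O78 (control span 0.83 to 1.42). The choroid plexus score was 3.10 against 1.31 and 1.45 (control span 0.67 to 3.34). Which of these differences went with the genes was not tested. Fads3 was 9.43 FPKM in MS_O13 (control span 8.99 to 10.4 FPKM), and 4.30 and 5.79 FPKM in MS_O46 and MS_O78, below that span. The libraries fell into separate sets on these measures, so no pooled correlation between the cortex score and these genes is given.

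**Figure D3:**
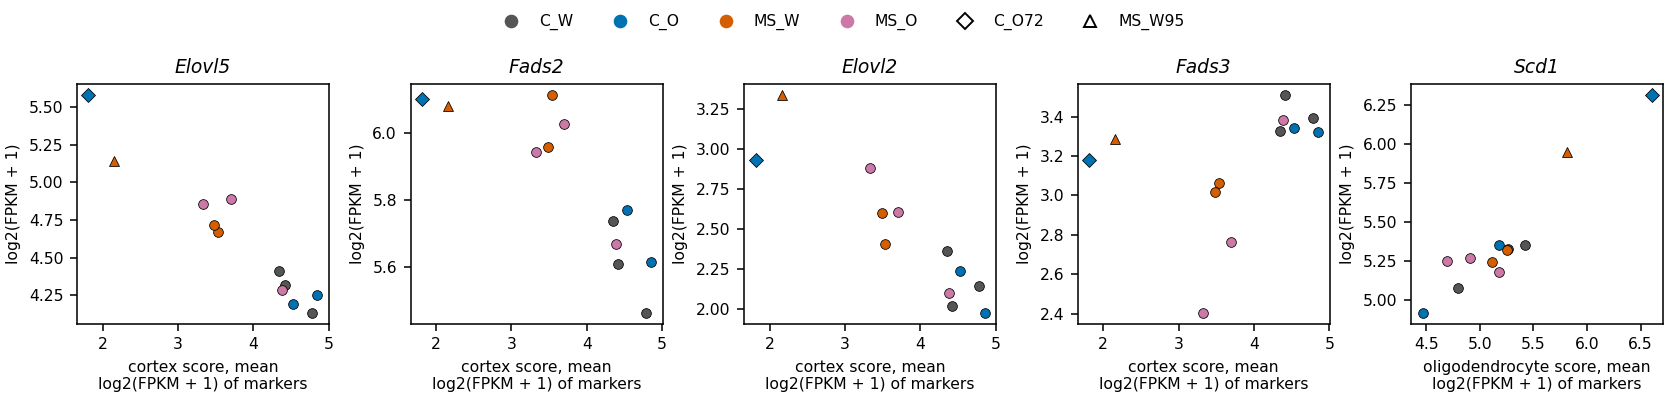
Log2(FPKM + 1) of 5 genes against a marker score (mean log2(FPKM + 1) of the markers) in each of the 12 libraries, with the cortex score for Elovl5, Fads2, Elovl2 and Fads3 and the oligodendrocyte score for Scd1. Colors are groups, the diamond is C_O72 and the triangle is MS_W95. MS_O13, with a cortex score of 4.39, lies among the control libraries in the first 4 panels.

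CUMS in mice given krill oil was examined by comparing C_O with MS_O. No gene of the 10 passed the adjusted threshold, which 0.00467% of tested genes passed, and Scd2 alone had an unadjusted p under 0.05, against 8.88% of tested genes. Scd2 was also the only one of the 10 without overlap of the groups (12.2% of tested genes) and the only DEG (3.57% of tested genes). The median log2 difference of the 10 genes was -0.10, against 0.03 over all tested genes, and turned to 0.13 without C_O72. Fads2 differed by 0.05 (95% interval -0.27 to 0.37), Elovl5 by 0.00 (95% interval -0.73 to 0.73) and Fads3 by -0.43 (SE 0.20, unadjusted p = 0.0595). Without C_O72 and MS_W95 the Elovl5 difference was 0.45 (SE 0.17, unadjusted p = 0.0313, adjusted p = 0.344), with Elovl5 at 46.7 FPKM in C_O72 and 18.1 and 17.3 FPKM in C_O15 and C_O30. In that fit 13.6% of tested genes had an unadjusted p under 0.05. The cortex score difference of C_O vs MS_O was 0.07 over all libraries and -0.89 without C_O72 and MS_W95, and its part in the Elovl5 difference was not tested.

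Averaged over both diets, the CUMS groups were higher in Fads2 by 0.25 on the log2 scale (SE 0.10, unadjusted p = 0.0332) and lower in Fads3, with a difference of -0.36 (SE 0.14, unadjusted p = 0.0313), and both had an adjusted p of 0.367. These were the 2 of 10 genes with an unadjusted p under 0.05, a threshold that 12.5% of tested genes passed, and 0 of 10 passed the adjusted threshold (0.00935% of tested genes). Without C_O72 and MS_W95, Fads2 differed by 0.31 (unadjusted p = 0.00809), Elovl5 by 0.43 (unadjusted p = 0.00785), Elovl2 by 0.38 (unadjusted p = 0.0404) and Fads3 by -0.42 (unadjusted p = 0.0320), with adjusted p from 0.115 to 0.206, and 22.2% of tested genes had an unadjusted p under 0.05 in that fit. With array weights, Fads2 (0.34, adjusted p = 0.0270), Fads3 (-0.47, adjusted p = 0.0293) and Elovl5 (0.47, adjusted p = 0.0446) passed the adjusted threshold, as did 9.94% of tested genes. In an ordinary linear model with library size as a covariate the direction turned for Fads2 (-0.04), Fads3 (0.05), Elovl5 (-0.46) and Elovl2 (-0.24).

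Krill oil was examined by comparing C_W with C_O and MS_W with MS_O. In unstressed mice 0 of 10 genes passed the adjusted threshold, as did 0% of tested genes, and Scd2 alone had an unadjusted p under 0.05 (3.55% of tested genes) and was the only DEG (1.76%). No gene of the 10 had groups without overlap, against 9.42% of tested genes. In stressed mice 0 of 10 passed the adjusted threshold (0.00467% of tested genes), and Scd2 alone had an unadjusted p under 0.05 (6.09%), no overlap (12.3%) and the DEG call (2.81%). The median log2 difference of the 10 genes was 0.22 in C_W vs C_O and -0.20 in MS_W vs MS_O, against 0.00 and -0.02 over all tested genes. Without C_O72 the first of these medians was -0.07, and without MS_W95 the second was -0.04. Averaged over both stress states, 0 of 10 genes passed the adjusted (0.00467% of tested genes) or the unadjusted threshold (3.22%), and the estimate for Fads1 was 0.02 (95% interval -0.16 to 0.19).

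Scd2, the delta-9 desaturase that predominates in brain, measured 269, 42.6 and 47.4 FPKM in C_W1, C_W64 and C_W70, and 244, 230 and 468 FPKM in C_O15, C_O30 and C_O72. It measured 296, 298 and 69.1 FPKM in MS_W31, MS_W75 and MS_W95, and 42.6, 59.4 and 49.5 FPKM in MS_O13, MS_O46 and MS_O78. The values fell into 2 ranges with none between 69.1 and 230 FPKM, and the upper range held 1 of 3 C_W, 3 of 3 C_O, 2 of 3 MS_W and 0 of 3 MS_O libraries. Scd1, its neighbour, did not follow this split, since it stayed between 29.3 and 39.9 FPKM in all libraries but C_O72 and MS_W95. The ratio of Scd2 to Scd1 was 1.14 to 1.58 in the 6 libraries of the lower range and 5.97 to 8.01 in the others. The estimated counts of the table are proportional to FPKM within a library, so they carry the same split and are not a second measurement. Whether transcript assembly or the assignment of shared reads took part in this split, and so in the differences of Scd2 between groups, was not tested.

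The log2 difference of Scd2 was -2.55 in C_O vs MS_O (SE 0.72, unadjusted p = 0.00511, adjusted p = 0.479), lower in 3 of 3 MS_O mice than in any C_O mouse. It was 1.85 in C_W vs C_O (unadjusted p = 0.0274, adjusted p = 0.908) and -1.85 in MS_W vs MS_O (unadjusted p = 0.0274, adjusted p = 0.805). The interaction, which is the CUMS difference with krill oil minus that with water, was -3.70 (SE 1.02, 95% interval -5.96 to -1.44, unadjusted p = 0.00436, adjusted p = 0.631). Without C_O72 and MS_W95 it was -4.07 (unadjusted p = 0.00239). Scd2 was the only one of the 10 genes with an unadjusted p under 0.05 for the interaction, against 7.23% of tested genes, and 0 of 10 passed the adjusted threshold, as did 0% of tested genes. Leaving out C_W64, C_W70 or C_O72 left the C_W vs C_O difference at 1.39, 1.46 and 1.52, with an unadjusted p above 0.05. The same held for MS_W vs MS_O without MS_W31 (-1.50), MS_W75 (-1.50), MS_O13 (-1.74) or MS_O78 (-1.84). The interaction estimate was below 0 for all 10 genes in the fit of 12 libraries, with a median of -0.42 against -0.02 over all tested genes, but this median was 0.08 without C_O72 and MS_W95.

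**Figure D4:**
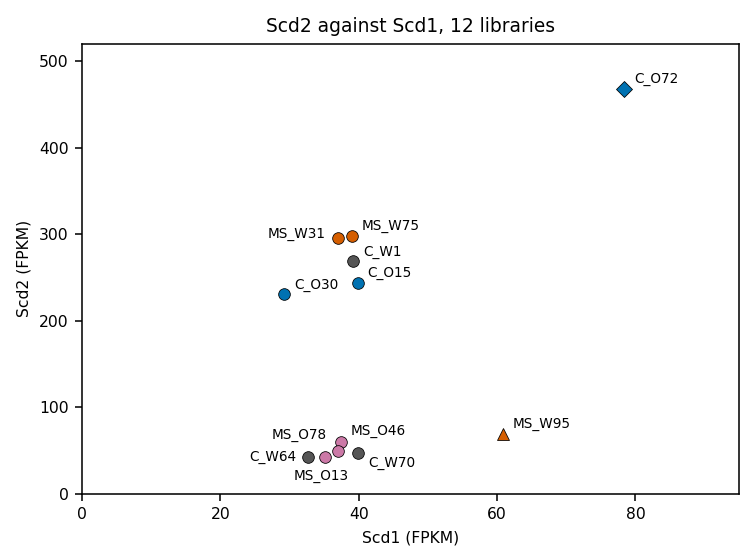
Scd2 against Scd1 in FPKM (linear axes) in each of the 12 libraries, labelled by group and mouse number. Scd2 lies at 42.6 to 69.1 FPKM or at 230 to 468 FPKM, while Scd1 stays between 29.3 and 39.9 FPKM except in C_O72 (78.4 FPKM) and MS_W95 (60.8 FPKM).

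Scd1 was set beside markers of oligodendrocytes, the myelin-forming cells that make much of the lipid of the brain. The oligodendrocyte score, over 10 genes such as Mog, Mag and Mobp, was 6.60 in C_O72 and 5.81 in MS_W95 and 4.47 to 5.42 elsewhere, and the summed FPKM of the list was 1442 and 807 against 311 to 624. No gene of the list was at 0.0001 FPKM in any library. Over the 10 libraries without C_O72 and MS_W95, Scd1 and this score had a Pearson r of 0.82 (permutation p = 0.00465, adjusted p = 0.0864 over 130 relations) and a Spearman rho of 0.82 (permutation p = 0.00616). Leaving out the 2 libraries farthest from the median score gave r = 0.77. The relation did not pass after adjustment, and the permutation shuffled libraries without regard to their groups. Astrocyte genes were also higher in C_O72 and MS_W95, with a summed FPKM of 1338 and 1214 against 498 to 602 elsewhere. Scd1 and the astrocyte score had a Pearson r of 0.94 over 12 libraries and 0.47 over the 10.

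The genes most like each of the 10 were taken by Pearson r of log2(FPKM + 1) over the 12 libraries among 13621 genes with a mean of at least 1 FPKM. They are a description, since C_O72 and MS_W95 weigh heavily in these values. For Scd1 they were Snx33, Ttyh2 and Trf, with r = 0.99 for Snx33 (0.91 over the other 10 libraries), and Trf encodes transferrin, which oligodendrocytes make. For Elovl7 the first was Scd1 itself (r = 0.97). For Elovl2 they were Slc4a4, a bicarbonate transporter of astrocytes, Wdr20 and Rgs3, with r = 0.97 for Slc4a4. For Elovl5 they were Plaat3, Atp5g3 and Glud1, and for Fads2 they were Serpine2, Kdr and Gnai2. Scd2 had the lowest leading value, r = 0.87 for Rpn1, followed by Pik3ca and Banp. For Fads1 they were Npc1, Kcnk13 and Rdh13, for Fads3 Coro2a, Trpv2 and Nxph3, for Elovl4 Aen, Fam57b and Pnpla7, and for Elovl6 Inpp5b, Dgka and Neo1.

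Other genes of the same pathways were read from lists of 7 other desaturases and elongases, 7 genes of the elongation cycle, 6 electron donors, 8 genes of palmitate synthesis, 8 acyl-CoA synthetases, 14 lipogenic regulators and 8 genes of the peroxisomal step to DHA. Of these, 5, 6, 5, 8, 8, 14 and 8 were tested, and 0 passed the adjusted threshold in any comparison. In C_W vs MS_W, 5 of the 54 tested genes (9.26%) had an unadjusted p under 0.05, a share near the 10.5% of all tested genes. These were 1 electron donor, 1 gene of palmitate synthesis, 1 regulator and 1 peroxisomal gene upward and 1 acyl-CoA synthetase downward. The upward genes were Cyb5r1 (0.32, limma unadjusted p = 0.0140), a cytochrome b5 reductase, Slc25a1 (0.55, limma unadjusted p = 0.0172), the citrate carrier that supplies carbon for fatty acid synthesis, Mbtps1 (0.26, limma unadjusted p = 0.0138), the protease that cuts SREBP, and Abcd3 (0.35, limma unadjusted p = 0.0374), a peroxisomal transporter. The downward gene was Acsl5 (-0.99, limma unadjusted p = 0.0220), and the adjusted p of these 5 genes ran from 0.358 to 0.455.

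In C_O vs MS_O, Mbtps1 (0.28, limma unadjusted p = 0.00771) and Mcat (0.37, limma unadjusted p = 0.00767), a mitochondrial malonyl transferase, did not overlap between groups, and were the 2 of 54 genes (3.70%) under an unadjusted p of 0.05, against 8.88% of all tested genes. In MS_W vs MS_O this held for Slc25a1 (-0.48, limma unadjusted p = 0.0315), Cyb5r1 (-0.31, limma unadjusted p = 0.0166) and Hacd3 (-0.27, limma unadjusted p = 0.0463), a dehydratase of the elongation cycle, which were 3 of 54 genes (5.56%), against 6.09% of all tested genes. Whatever their p, 6 of 54 genes (11.1%) did not overlap in C_O vs MS_O, against 12.2% of all tested genes. The count was also 6 of 54 in MS_W vs MS_O, against 12.3%, and it was 17 of 54 (31.5%) in C_W vs MS_W, against 24.6%. Mbtps1 had 7.45 ± 0.10 FPKM in C_W, 7.43 ± 0.18 FPKM in C_O, 9.08 ± 0.20 FPKM in MS_W and 9.29 ± 0.87 FPKM in MS_O (SD, n = 3). Among the most abundant genes of the lists were Tecr (104 FPKM over the 12 libraries) and Hacd3 (65.4 FPKM) of the elongation cycle, Degs1 (24.1 FPKM) and Elovl1 (7.01 FPKM) among the other desaturases and elongases, and Cyb5b (38.9 FPKM) and Cyb5r3 (18.6 FPKM) among the electron donors. In the remaining lists they were Acly (41.4 FPKM) and Fasn (22.0 FPKM), Acsbg1 (52.7 FPKM) and Acsl3 (31.9 FPKM), Srebf2 (27.4 FPKM) and Insig1 (24.0 FPKM), and Scp2 (23.1 FPKM).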

How the data were processed

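Poly(A) RNA of 12 mouse brains was sequenced from strand-marked libraries. The FPKM values and the estimated counts of each gene were deposited by the authors in 1 table, made by alignment with HISAT2 and assembly with StringTie and Ballgown on mm10. The submitters' processing notes also list cutadapt 1.9, HISAT2 2.0.4, StringTie 1.3.4d, edgeR and DESeq2. The estimated counts are FPKM times a length and a library factor (median deviation 0.0479% over 1732 genes with a single transcript), so they were used, rounded, only for alternatives, and are not counts of reads. Depth, from 50912906 to 75678721 estimated counts, limits the precision for low genes, and 3 mice per group limit it for all.

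The test was limma 3.58.1 (lmFit, eBayes with trend, R 4.3.3) on log2(FPKM + 1). All 4 groups entered 1 model, fitted to 21393 genes whose mean FPKM was at least 0.1. It gave 7 comparisons, and p in each was Benjamini-Hochberg adjusted across these genes. Scores and correlations were tested by exact or 100000-resample permutation. The test was checked on simulated data with independent noise for each gene and library. That check holds no libraries set apart like C_O72 and MS_W95, so it does not cover their effect on p. The 10 genes, the lists of other genes and most alternatives were chosen with earlier results of these data known. Named were all 10 genes, the 3 genes most like each, and of each pathway list the 2 most abundant and those with an unadjusted p under 0.05 without overlap in a pairwise comparison. The values of 4 genes of the lists are not reported here. Alternatives were pseudocounts of 0.1 and 0.01, other filters, quantile normalization, centring on the median, 2 groups alone, a linear model with library size, robust eBayes, array weights, edgeR 4.0.16, DESeq2 1.42.0, leaving out libraries, and, added after seeing the data, the cortex score as a covariate. The library size of the linear model was the sum of log2(FPKM + 1) over detected genes below the upper quartile, and not a sequencing depth. The sequences are RefSeq promoters. Python 3.11.15, pandas 2.3.3, scipy 1.17.1 and matplotlib 3.10.9 made the tables and figures.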

Additional observations from a re-analysis of the deposited data

Results flagged for a closer look

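The interaction of CUMS and krill oil for Scd2 was -3.70 on the log2 scale. It was singled out because its unadjusted p in limma was under 0.05, so that p is not separate support. The krill oil difference was 1.85 in unstressed mice and -1.85 in stressed mice. Scd2 lay either at 42.6 to 69.1 FPKM or at 230 to 468 FPKM, and whether transcript assembly or shared reads took part was not tested. The unadjusted p was 0.00436 and the adjusted p 0.631, so the difference between the stress states fails the correction over all tested genes.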

How the results depend on the processing

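Of the counts and medians of the 10 genes, 297 values under an alternative stayed within tolerance and 13 did not, where the tolerance for a median was 0.27, the SD of the median between libraries of a group, so that a value within it can still change sign. The counts were of genes past the adjusted threshold and were 0 in every comparison of the main fit. The main C_W vs MS_W median, 0.27, was no larger than the tolerance. Staying within tolerance is therefore a weak criterion for these values. The median log2 difference of the 10 genes in C_W vs MS_W was -0.27 in the linear model with library size and -0.13 with the cortex score as a covariate, and over both diets the CUMS median was -0.24 in that linear model. The cortex score did not overlap between C_W and MS_W, so it cannot be told apart from CUMS there. Array weights brought 1 gene past the adjusted threshold in C_W vs MS_W (3.85% of all tested genes) and 3 over both diets (9.94%). The median in C_W vs C_O was -0.073 without C_O72 and MS_W95. The median interaction was 0.044 in the linear model, 0.062 with array weights, 0.099 with the cortex score as a covariate and 0.080 without C_O72 and MS_W95. Leaving out single libraries gave medians from -0.073 (without C_O72) to 0.35 in C_W vs C_O and from -0.52 to -0.13 for the interaction, which was -0.13 without C_O72 and -0.14 without MS_W95. In the linear model the CUMS difference over both diets turned to 0.047 for Fads3 and -0.041 for Fads2, and the cause was not tested. Of the 7 gene results with an unadjusted p under 0.05, 114 values kept their side of that threshold, 35 fell short of it and 2 turned. The Fads2 difference in C_W vs MS_W kept an unadjusted p under 0.05 in 18 of 20 alternatives, and the differences over both diets did so in 12 of 25 for Fads2 and 15 of 25 for Fads3. DESeq2 gave no p for Scd2, and those values are left out. No paired analysis was possible because the groups share no replicate numbers.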
